A study of Saccharomyces cerevisiae with 4 samples.

Results

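The 10 genes described here let budding yeast use allantoin and urea as nitrogen sources, and they were taken by name from the deposited tables of 5816 genes. All 10 were found. DUR1,2 is written there with its comma in coded form. DAL1, DAL4, DAL2, DCG1, DAL7 and DAL3 lie side by side on chromosome IX, while DAL5, DAL80, DUR1,2 and DUR3 lie on other chromosomes. The genes were chosen by name around 1 measured value, the higher read count of DCG1 in cells lacking CHD1. Every value of the 10 in that comparison is therefore a description, without a test, and the question asked was whether the neighbours of DCG1 share its difference.

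The tested strain carries a deletion of CHD1, which encodes a chromatin-remodelling ATPase, and the strain it is set against is labelled wildtype. Each genotype has 2 libraries. Both strains are BY4741, a haploid laboratory strain, grown in rich YPD medium at 30 °C with shaking at 250 rpm to mid-log phase (optical density 0.6 to 0.8). Total RNA was read from libraries made with a kit sold for small RNA. The labels do not say whether replicates are separate cultures or clones, so any p-value measures only the spread between these libraries, which may be technical.

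Allantoin is opened and split in steps to urea and glyoxylate, and urea is then split to ammonia and carbon dioxide. The genes for these steps are known to be held low when a preferred nitrogen source is present, a regime called nitrogen catabolite repression. In it the GATA factors Gln3 and Gat1 activate, and Dal80 and Gzf3 repress, through promoter sites built on the letters GATAAG. DCG1, a gene of unknown function, is known to be under this control as well.

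DAL1 had the pattern over the libraries, centred on its mean, that came closest to that of DCG1 among the genes tested. This likeness is a description. It rests on 3 and 4 wild-type reads of DAL1 and on the comparison by which DCG1 was chosen. The promoter of DAL1, those of DAL2 and DAL7 on either side of DCG1, and that of DCG1 are printed so that the sites can be seen. Each is the 250 bases before the annotated start codon in the RefSeq R64 assembly (the sequence of sacCer3), read 5′ to 3′ on the strand of the gene. Capitals mark GATAAG or its reverse complement CTTATC. They lie at chrIX:412771-413020 (DCG1, reverse strand), chrIX:410557-410806 (DAL2, forward), chrIX:414680-414929 (DAL7, reverse) and chrIX:407643-407892 (DAL1, reverse).
DCG1: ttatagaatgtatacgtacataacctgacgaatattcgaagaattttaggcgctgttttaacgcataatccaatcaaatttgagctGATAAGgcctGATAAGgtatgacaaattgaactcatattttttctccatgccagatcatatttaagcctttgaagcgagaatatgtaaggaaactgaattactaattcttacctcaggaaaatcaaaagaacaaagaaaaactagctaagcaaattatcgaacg
DAL2: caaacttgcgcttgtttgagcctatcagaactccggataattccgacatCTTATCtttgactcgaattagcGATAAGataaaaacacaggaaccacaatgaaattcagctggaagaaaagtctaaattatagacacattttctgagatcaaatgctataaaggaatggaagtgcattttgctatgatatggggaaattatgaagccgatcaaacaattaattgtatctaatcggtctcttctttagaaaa
DAL7: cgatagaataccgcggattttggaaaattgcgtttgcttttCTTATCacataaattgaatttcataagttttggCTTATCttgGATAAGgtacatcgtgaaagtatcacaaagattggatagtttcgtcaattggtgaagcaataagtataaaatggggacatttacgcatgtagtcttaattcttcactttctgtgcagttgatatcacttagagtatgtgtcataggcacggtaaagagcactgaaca
DAL1: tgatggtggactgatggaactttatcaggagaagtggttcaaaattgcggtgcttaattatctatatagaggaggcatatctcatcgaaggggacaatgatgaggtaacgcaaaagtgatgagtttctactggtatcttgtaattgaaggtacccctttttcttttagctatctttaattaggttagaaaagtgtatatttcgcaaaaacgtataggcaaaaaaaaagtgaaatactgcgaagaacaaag

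The DCG1 window holds 2 matches, 164 and 154 bases before the start codon, counted to the first base of the match. DAL2 holds 2 and DAL7 holds 3, at 209, 176 and 167 bases. DAL1 holds 0. Among the members not printed, DAL3 holds 5 matches, 2 of which overlap each other, DAL5 and DAL80 hold 1 each, and DAL4, DUR1,2 and DUR3 hold 0. Matches were counted on both strands, overlapping ones included. At least 1 match was found for 6 of the 10 members and for 12.5% of 6001 promoters of the same length, and at least 2 for 4 members and for 1.30% of all promoters. A match is a run of letters and not a shown site, and a window without one says nothing of the bases beyond it.

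The block runs on chromosome IX from 406260, the end of DAL1, to 415617, the start of DAL3. DCG1 (YIR030C) spans 412036 to 412770 on the reverse strand. It converges with DAL2 (YIR029W, 410807 to 411838, forward), with 197 bases between their coding sequences. It lies downstream of DAL7 (YIR031C, 413015 to 414679, reverse), with 244 bases between. The gene models behind the deposited counts were longer than the coding sequences, by 94 bases for DCG1, 181 for DAL2 and 195 for DAL7. Where these extra bases lie, and whether reads were counted by strand, is not given in the sources used here. Some reads counted for DCG1 could therefore belong to a neighbour, and how many cannot be told. No window of 30 bases in the coding sequence of any of the 10 members occurs a second time in the genome. DAL7 and its paralog MLS1, aligned end to end, are identical at 73.8% of positions and share 0 such windows.

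The libraries held 4117998 and 2597514 gene reads in the deletion and 2145684 and 2824770 in wild type. CHD1 itself was read 7 and 3 times in the deletion and 211 and 396 times in wild type. Levels are given as CPM, reads per 1e6 on library sizes scaled by trimmed-mean (TMM) factors, as mean ± SD with n = 2. Log2 fold changes are deletion over wild type, with a standard error, from edgeR's quasi-likelihood fit over 5488 genes with enough reads. Of these, 260 genes passed an adjusted p of 0.05, which is 4.74% of the genes tested, 92 higher (1.68%) and 168 lower (3.06%). The median log2 fold change of all tested genes was 0.004.

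In cells without CHD1, DCG1 had 2.84 times its wild-type level, while DAL2 and DAL7 on either side of DCG1 had 1.27 and 0.944 times theirs. DAL1 had 3.09 times its wild-type level, which rests on 3 and 4 wild-type reads. It entered the fit only through its deletion reads, so that ratio cannot show a shared difference. Of the 10 members, 7 had enough reads for the fit. By the threshold of the fit over all genes, DCG1 was higher and DUR1,2 lower, and the other 5 did not pass. With the comparison already used to bring the genes together, nothing is read from that count beside the 4.74% of all genes. The median log2 fold change of the 7 was -0.08. DAL3, DAL4 and DAL80 had too few reads. Libraries of the genotypes did not overlap for 6 members: in DCG1, DAL1, DAL2 and DAL3 both deletion libraries were above both wild-type libraries, and in DUR1,2 and DUR3 both were below. Over all tested genes, 24.9% lay wholly above and 24.4% wholly below.

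DCG1 was counted 69 and 39 times in the deletion libraries and 10 and 16 times in the wild-type libraries. These are 16.1 and 14.6 CPM in the deletion, against 4.93 and 5.76 CPM in wild type. Both deletion libraries stood well above both wild-type libraries, and the replicates of each genotype lay close together. The log2 fold change was 1.51 ± 0.28, or 2.84-fold, the 11th highest of all tested genes.

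**Figure D1:**
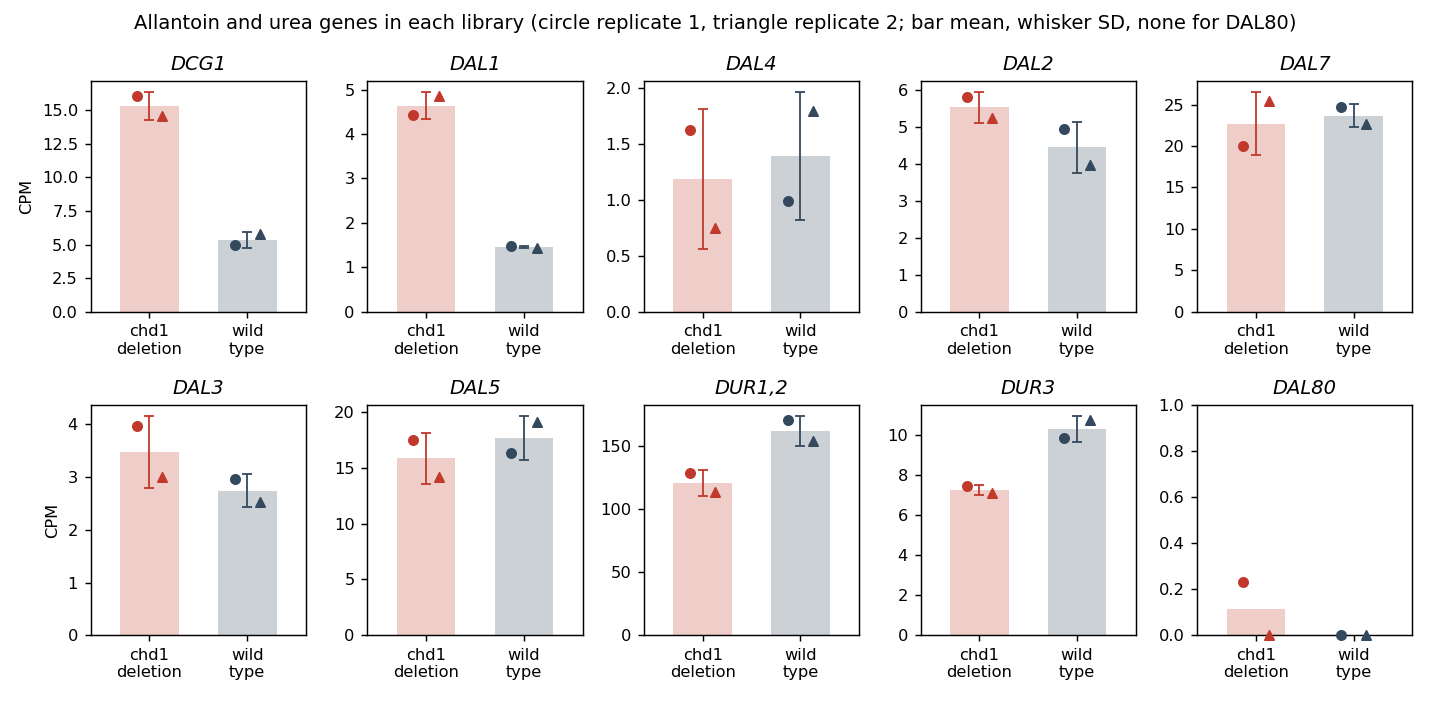
CPM of each member in the chd1 deletion (red, left) and wild type (grey, right), on linear axes from 0 with a scale of its own for each gene; circles are replicate 1, triangles replicate 2, bars means and whiskers SD (none for DAL80, with 1 read in all). Relative to wild type, and with DAL80 left aside, DCG1 (15.3 against 5.34 CPM) and DAL1 (4.64 against 1.46 CPM) show the widest gaps. In CPM the widest gap is that of DUR1,2, at 121 in the deletion against 162 in wild type. DAL4, DAL5 and DAL7 overlap.

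The enzymes of allantoin breakdown come next in the block. DAL1 encodes allantoinase, which opens the ring of allantoin. It was counted 19 and 13 times in the deletion and 3 and 4 times in wild type, or 4.42 and 4.86 CPM against 1.48 and 1.44 CPM. Its log2 fold change was 1.63 ± 0.48, the 5th highest, but it entered the fit only through its deletion reads and did not pass the threshold. It was past the threshold with total gene counts, with limma-voom and with a replicate block, so that outcome depended on the processing. The ratio of summed reads per scaled library size was 3.15, with an exact 95% interval of 1.37 to 8.46 that covers counting error only.

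DAL2, the convergent neighbour of DCG1, encodes allantoicase, which splits allantoate into ureidoglycolate and urea. It had 25 and 14 reads in the deletion and 10 and 11 in wild type (5.82 and 5.23 CPM against 4.93 and 3.96 CPM). The deletion libraries were the higher ones, by less than for DCG1, with a log2 fold change of 0.35 ± 0.36. DAL3 encodes ureidoglycolate lyase, which releases glyoxylate and a further urea. It had 17 and 8 reads in the deletion and 6 and 7 in wild type, or 3.96 and 2.99 CPM against 2.96 and 2.52 CPM. The nearest libraries of the genotypes almost touch, and the ratio of summed reads was 1.33, with an interval of 0.653 to 2.82.

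DAL7, upstream of DCG1, encodes a malate synthase that uses the glyoxylate. It was the most abundant gene of the block in wild type, with 86 and 68 reads in the deletion and 50 and 63 in wild type. At 20.0 and 25.4 CPM in the deletion and 24.7 and 22.7 CPM in wild type, the genotypes overlapped. The log2 fold change was -0.08 ± 0.20, and its sign turned to 0.02 with library sizes taken from total gene counts and to 0.11 without deletion replicate 1. Its paralog MLS1, which serves growth on acetate and ethanol, had 2.56 and 4.11 CPM in the deletion and 4.93 and 2.88 CPM in wild type (-0.24 ± 0.45, edgeR adjusted p = 0.824).

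Among the transporters, none was higher in the deletion beyond its spread. DAL4, the allantoin permease gene of the block, was barely read, with 7 and 2 reads in the deletion and 2 and 5 in wild type. Its genotypes overlapped, and the ratio of summed reads was 0.886, with an interval of 0.294 to 2.80. DAL5, the allantoate permease gene on chromosome X (719666 to 721297), had 17.4 and 14.2 CPM in the deletion and 16.3 and 19.1 CPM in wild type. These overlapped too, at a log2 fold change of -0.15 ± 0.22.

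DUR3, the urea transporter gene on chromosome VIII (72037 to 74244), had 32 and 19 reads in the deletion and 20 and 30 in wild type. In CPM it was lower in both deletion libraries, at 7.45 and 7.10 against 9.87 and 10.8 in wild type (-0.51 ± 0.28, not past the threshold). DUR1,2 on chromosome II (636703 to 642210) encodes urea amidolyase, the biotin-dependent enzyme that splits urea. It had 552 and 304 reads in the deletion and 346 and 428 in wild type, or 128 and 114 CPM against 171 and 154 CPM. Both deletion libraries were below both wild-type libraries, with a log2 fold change of -0.41 ± 0.11. It no longer passed the threshold with total gene counts, with DESeq2, and without wild-type replicate 1, deletion replicate 1 or deletion replicate 2.

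DAL80, the gene of the GATA repressor on chromosome XI (506898 to 507707), had 1 and 0 reads in the deletion and 0 and 0 in wild type. A count of 0 allows up to 3 reads, which is 1.48 and 1.08 CPM in the wild-type libraries, counting error only. Reads of this gene were therefore at the limit of what these libraries can show, and no fold is given.

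Per length, the members also differed in level. In the deletion DCG1 had 18.5 CPM per kilobase of gene model and stood beside DUR1,2 at 19.8, their libraries overlapping, and above DAL7 at 12.2. In wild type, DUR1,2 had 26.6 CPM per kilobase of gene model, near the median of all genes, 24.5. DAL7 had 12.7, DCG1 6.45 and DAL5 5.46 CPM per kilobase. DAL3 (3.76), DAL2 (3.66) and DUR3 (3.31) followed, and each of these overlapped its neighbour in the order over the wild-type libraries. DAL1 (0.825) and DAL4 (0.652) overlapped as well, with 1.96% and 1.67% of all genes below them, and DAL80 was at 0. With coding lengths in place of model lengths, a choice made after the data were seen, DAL5 came to 10.8 and changed places with DCG1 at 7.27, because its model of 3235 bases is far longer than its coding sequence of 1632.

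Within the block, the make-up of the reads is given as a description. The DCG1 share restates the higher DCG1 count by which the genes were chosen, over a total that includes DCG1. The intervals cover counting error only. DCG1 held 30.9% (95% Wilson interval 25.2 to 37.3) and 27.1% (20.5 to 34.9) of the 223 and 144 block reads in the deletion. In wild type it held 12.3% (6.85 to 21.3) and 15.1% (9.51 to 23.1) of 81 and 106 reads. For each DAL7 read there were 0.802 and 0.574 DCG1 reads in the deletion, against 0.20 and 0.254 in wild type. For each DAL2 read there were 2.76 and 2.79 DCG1 reads in the deletion, against 1 and 1.45 in wild type. DAL1 gave 0.275 and 0.333 reads for each DCG1 read in the deletion and 0.30 and 0.25 in wild type, and the genotypes overlapped. The wild-type values rest on 3 and 4 DAL1 reads, and DAL1 entered the fit only through its deletion reads. That overlap therefore cannot show a shared difference.

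The block as a whole had 51.9 and 53.8 CPM in the deletion and 40.0 and 38.1 CPM in wild type. Without DCG1 it had 35.8 and 39.2 CPM in the deletion and 35.0 and 32.4 CPM in wild type, so both deletion libraries were still the higher ones, by a narrow gap to the nearest wild-type library. With DAL1 left out as well, a choice made after its values were seen, the sum was 31.4 and 34.4 CPM in the deletion and 33.6 and 30.9 CPM in wild type, and the genotypes overlapped.

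**Figure D2:**
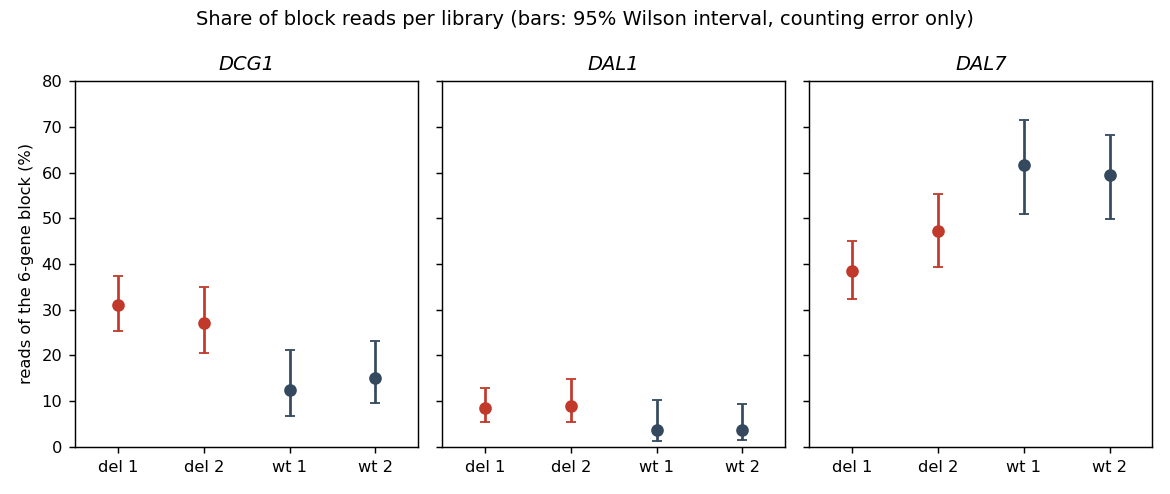
Share of the reads of the 6-gene block that fell in DCG1, DAL1 and DAL7, in percent, for deletion replicates 1 and 2 (red) and wild-type replicates 1 and 2 (grey); bars are 95% Wilson intervals for counting error. DCG1 holds 30.9% and 27.1% in the deletion and 12.3% and 15.1% in wild type. DAL7, whose CPM overlapped, holds 38.6% and 47.2% in the deletion and 61.7% and 59.4% in wild type. All shares come from the same total, so a higher DCG1 share lowers the others.

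The genes beside the block are not members and were tested. On the left were 10 annotated protein-coding genes, and on the right the 9 that remain before the chromosome end. Of these 19, 17 had enough reads, and 0 passed edgeR's quasi-likelihood test upward or downward. Over all genes tested 4.74% passed, so 0 of 17 is near that share and nothing is read from it. At an unadjusted p under 0.05 there were 6. The share of all genes at that cut was not counted, so nothing is read from the 6. Limma-voom called 0, and DESeq2 called 0 of the 5 to which it gave an adjusted p. Their log2 fold changes ran from -1.01 to 0.81 with a median of -0.12. With total gene counts, which move the median of all genes to 0.11, 2 passed, and without wild-type replicate 2, 2 passed.

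Next to DAL1, the protein phosphatase gene YVH1 had 55.1 and 55.7 CPM in the deletion and 38.0 and 43.9 CPM in wild type (0.42 ± 0.14, edgeR adjusted p = 0.0949). MND2, for a subunit of the anaphase-promoting complex, had a log2 fold change of 0.18 ± 0.24 (edgeR adjusted p = 0.736). INA22, for an assembly factor of the mitochondrial ATP synthase, had 43 and 21 reads in the deletion and 8 and 17 in wild type (0.81 ± 0.33, edgeR adjusted p = 0.171). In these 3 genes both deletion libraries were above both wild-type libraries, as they were in 4 of the 17 fitted flanking genes in all. In 8 of the 17 both were below, and in 5 the genotypes overlapped. Over all tested genes, the shares were 24.9% above and 24.4% below.

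Next to DAL3, MGA2, for a membrane-bound activator of fatty acid desaturation, had 118 and 116 CPM in the deletion and 92.3 and 95.3 CPM in wild type (0.32 ± 0.11, edgeR adjusted p = 0.117). Beyond it LYS1 of lysine synthesis had a log2 fold change of -0.23 ± 0.14 and NRE1 one of -0.12 ± 0.15. No flanking gene that was fitted had a difference as large as those of DCG1 and DAL1 upward. The members were chosen around DCG1, and DAL1 entered the fit only through its deletion reads, so this is a description.

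**Figure D3:**
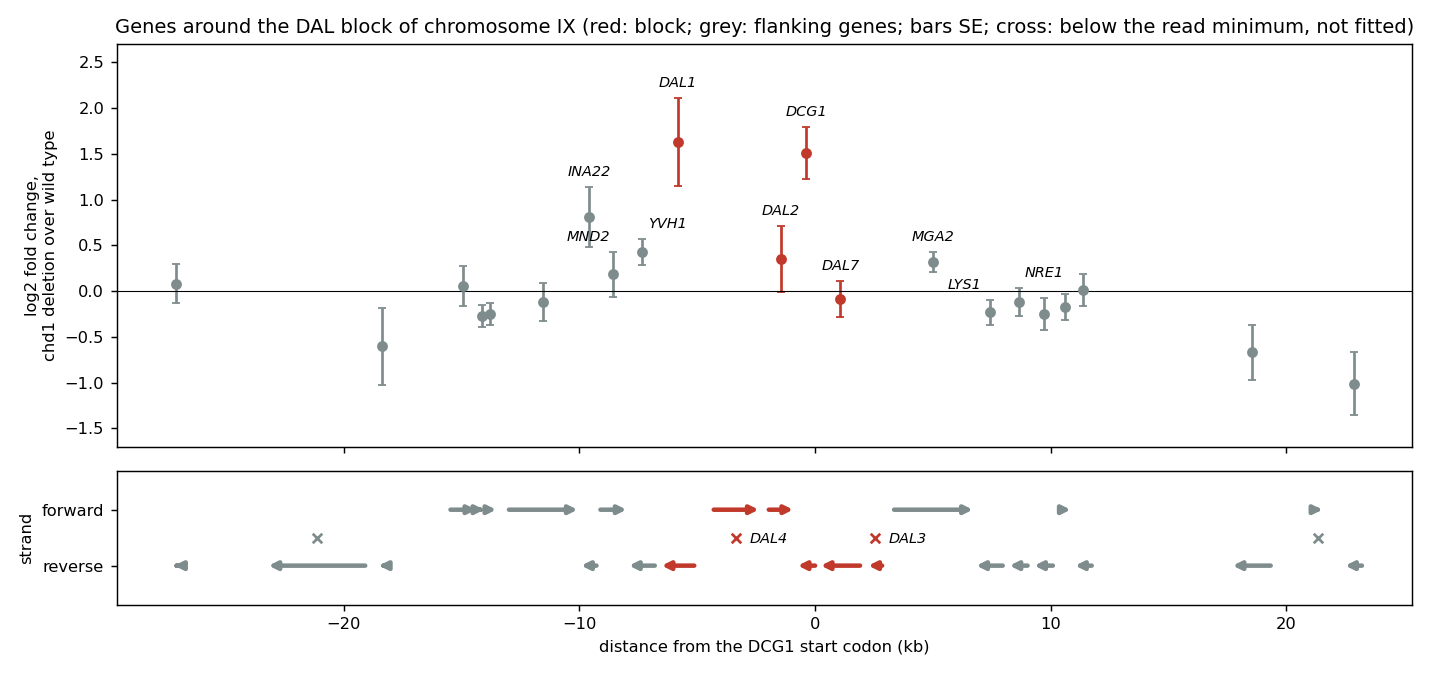
Log2 fold change (deletion over wild type, ± SE) of the block (red) and the flanking genes (grey) against distance in kb from the DCG1 start codon, with strand and extent of each gene in the lower panel; crosses mark genes with too few reads for the fit. DAL1 (1.63) and DCG1 (1.51) stand above DAL2 (0.35), DAL7 (-0.08) and every fitted flanking gene, the highest of which is INA22 (0.81). The members were chosen around DCG1, and DAL1 entered the fit only through its deletion reads.

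By its pattern over the libraries, DAL1 was listed nearest to DCG1 among the genes tested, which is a description of the values that brought DCG1 to attention. Likeness was the Euclidean distance between log2 CPM, centred on each gene's mean, over the 4 libraries, and it was 0.258 for DAL1. Next among the 5487 genes compared came OYE3, for an NADPH oxidoreductase (0.301), the glycoprotein gene YGP1 (0.319), the zinc transporter gene ZRT1 (0.320) and GPG1 (0.331). Their log2 fold changes were 1.44, 1.10, 1.19 and 1.35 in that order. OYE3 had 21 and 15 reads in the deletion and 3 and 6 in wild type. Like DAL1 it entered the fit only through its deletion reads and did not pass the threshold. The distance was 1.18 for DAL2 (rank 872), 1.53 for DAL7 (3612), 1.57 for DAL5 (3950), 1.85 for DUR1,2 (5232) and 1.88 for DUR3 (5272). With 4 libraries, such a distance mostly ranks genes by the gap between the genotypes.

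Other genes under nitrogen catabolite repression moved in both directions. Their list was written from general knowledge, with earlier results of these data known, so its counts are a description. Of 31 tested, 5 fell, 1 rose and 25 did not pass, where over all genes tested 3.06% fell and 1.68% rose. The median of the list was -0.09, beside 0.004 for all genes. The 31 count each copy of ASP3 apart, and the median is the value of such a copy. OPT1, an oligopeptide transporter gene, fell to 35.3 ± 2.39 CPM in the deletion, against 64.4 ± 10.1 CPM in wild type (log2 fold change -0.87 ± 0.15, edgeR adjusted p = 0.00145). GAP1, the general amino acid permease gene, fell to 20.0 ± 2.92 CPM in the deletion, against 34.8 ± 6.70 CPM in wild type (-0.85 ± 0.19, edgeR adjusted p = 0.0146). AGP1, another amino acid permease gene (-0.59), and GLN1, for glutamine synthetase (-0.54), fell too. So did the carboxypeptidase gene CPS1 (-0.54), named after its value was seen. BAT2, for a branched-chain aminotransferase, rose by 1.58.

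Of these, GAP1 lost its call without wild-type replicate 2 (edgeR adjusted p = 0.102) and without deletion replicate 1 (0.148). AGP1 lost it in the same fits and with total gene counts, and GLN1 and CPS1 without deletion replicate 1. DESeq2 called GLN1, CPS1 and BAT2 and gave no adjusted p for OPT1, GAP1 and AGP1. The proline permease gene PUT4 had too few reads. The 4 copies of ASP3 for asparaginase had nearly equal counts in each library, so their entries may be the same reads.

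Ammonia from urea enters glutamate and glutamine. Of 5 genes listed for this, with GDH2 for the reverse step, 3 fell (3.06% of all genes did). These were GDH1 (-1.10), GLN1 and GLT1, for glutamate synthase (-0.40). The list was chosen with earlier results of these data known, so nothing is read from the count beside that share. Without deletion replicate 1, GDH1 was the 1 gene of the list still called. GLN1 and GDH2 are also on the list above. GLT1 lost its call under total gene counts, and also without wild-type replicate 2, deletion replicate 1 or deletion replicate 2. GDH2, which releases ammonia (0.37 ± 0.12, edgeR adjusted p = 0.0796), and GDH3 (0.39 ± 0.26) did not pass.

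The genes for regulators of the members stayed short of the threshold. Of GLN3, GAT1, GZF3, URE2, DAL81 and DAL82, 0 of 6 passed edgeR's test, with 1 at an unadjusted p under 0.05 and 0 called by limma-voom. As 4.74% of all genes tested passed, 0 of 6 is near that share and nothing is read from it. The share of all genes at the unadjusted cut was not counted. DESeq2 gave an adjusted p to 1 of them and did not call it. Their log2 fold changes ran from -0.35 for GZF3, the paralog of DAL80, to 0.07 for GAT1. GZF3 had 48.9 and 46.7 CPM in the deletion and 51.8 and 68.7 CPM in wild type (edgeR adjusted p = 0.191), and it was called lower without wild-type replicate 1 (-0.51). DAL81, for an activator of the pathway and itself 4 genes from the block, had 24.9 and 23.2 CPM in the deletion and 33.1 and 20.9 CPM in wild type.

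Relatives of single members gave 1 call. With 4.74% of all genes tested past the threshold, so small a count in lists this short says little. Of 6 tested relatives of DAL5, the nicotinic acid permease gene TNA1 rose, with 208 and 213 CPM in the deletion and 150 and 162 CPM in wild type (0.43 ± 0.11, edgeR adjusted p = 0.0242). It lost its call without either deletion replicate. Of the relatives of DAL4, of the other enzymes that make or use glyoxylate, and of the genes for biotin supply, 0 of 5, 0 of 5 and 0 of 6 passed. At an unadjusted p under 0.05, where the share of all genes was not counted, these lists had 1, 0 and 0 genes. Limma-voom called 0 in each. DESeq2 called 0 too, but it gave an adjusted p to 1, 1 and 0 genes of these lists. Without wild-type replicate 2, 1 glyoxylate gene and 1 biotin gene were called.

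**Figure D4:**
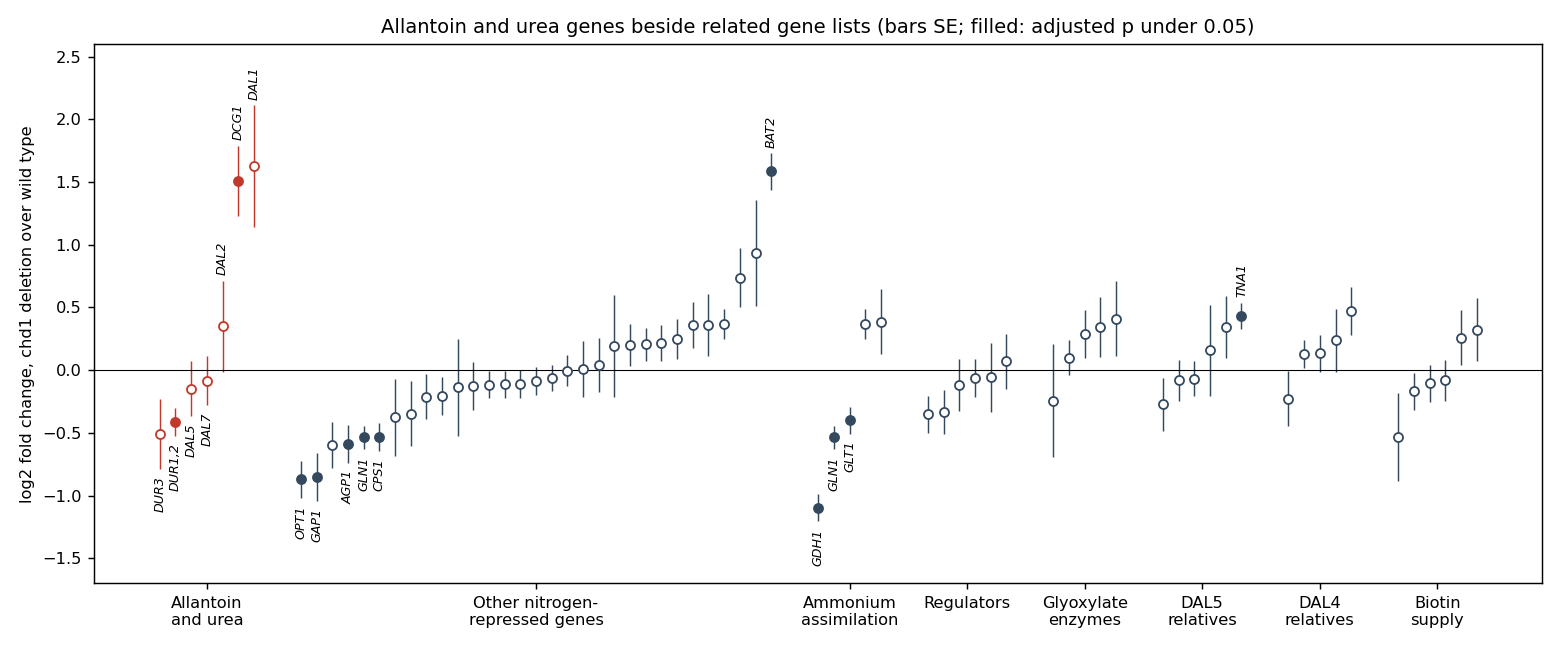
Log2 fold change (deletion over wild type, ± SE) of the 7 fitted members (red) and of the genes of 7 related lists (grey), sorted within each list; filled points passed an adjusted p of 0.05. DCG1 (1.51) and DAL1 (1.63) lie with BAT2 (1.58) at the top, while GDH1 (-1.10), OPT1 (-0.87) and GAP1 (-0.85) lie lowest. The members were chosen around DCG1, and DAL1 entered the fit only through its deletion reads.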

How the data were processed

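Per the submitters' processing notes, CASAVA 1.8, TopHat and the build sacCer3 were used; how reads were counted, with which annotation and strand setting, is not given in the sources used here. The authors deposited, for each library, whole-number read counts per gene with the length of the gene model, per the file headers. A further deposited column, a normalized read score, entered no calculation, and the intron tables were not used. Counts were tested with edgeR 4.0.16 in R 4.3.3 (quasi-likelihood test, TMM factors, the filterByExpr rule with 10 as its minimum count, a model of genotype alone, Benjamini-Hochberg adjustment, threshold 0.05). Standard errors are the log2 fold change over the square root of its quasi-F statistic. Alternatives used RLE factors, total gene counts, DESeq2 1.42.0, limma-voom (limma 3.58.1), other filters, a replicate block and the leaving out of each library. The fit was also run on counts simulated with the spread that the fit itself had estimated, which does not test the calls reported here. Exact intervals for ratios of summed reads came from the binomial in scipy 1.17.1, and alignments from Biopython 1.88. Log2 CPM for likeness used a prior count of 2. Symbols and positions came from RefSeq R64.

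The members and lists were chosen with earlier results of these data known. The text names the members, CHD1, the 3 genes on each side of the block, MLS1, GZF3, up to 4 changed genes per list and direction, and the 5 genes most like DCG1.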

Additional observations from a re-analysis of the deposited data

How the results depend on the processing

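The log2 fold change of DCG1 lay between 1.42 and 1.65 when each library was left out in turn, and DESeq2 gave it no adjusted p. The refits reuse the libraries in which the rise of DCG1 was first seen. They show how member values depend on the processing and do not test them. DAL1 ranged from 1.5 to 1.73 over 10 alternatives. DUR1,2 ranged from -0.51 to -0.31 over 11. The number of genes changed over the whole table, 260, was 159 with DESeq2, whose own filter gave an adjusted p to 2190 of 5488 genes, and between 133 and 577 with 1 library left out. Genes called higher and lower were 176 and 65 with total gene counts. The changed genes of the nitrogen-repressed list, 6, were 3 with DESeq2 and between 3 and 8 with 1 library left out. Flanking genes called, 0, were 2 with total gene counts and between 0 and 2 with 1 library left out. With a replicate block, the whole table gave 424 calls and the flanking genes 1; deviations of same-numbered libraries correlated at 0.014 across genes, and the labels do not say that the numbers pair the libraries. In each of these cases the cause was not tested. DAL1, DAL2, DAL3, DAL4 and DAL80 rest on at most 25 reads in any library, which limits what can be said of their differences.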
